A study of Mus musculus with 8 samples.

Results

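Mouse P19 cells carrying the WCS mutant of a MyoD chimera were compared with P19 cells carrying the unmutated chimera, both labelled as infected at MOI 100 (multiplicity of infection, the ratio of virus particles to cells). The comparison was chosen by its labels and takes 1 library a side, 2 of the 8 libraries of the series, so neither side had a replicate, and it covers all 37558 genes of the count table. Of these genes, 15547 were measured, which means that they reached 1 CPM (reads scaled to a common library total) in at least 1 of the 8 libraries, and 15231 had no read in either MOI 100 library.

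P19 is an embryonal carcinoma line that can form neurons or muscle in culture. All 8 cultures were P19 cells infected with lentivirus in the presence of 8 µg/ml polybrene, given fresh medium after 24 hours and held in a neuronal medium, Neurobasal with B27, from 48 hours until harvest. The chimera is MyoD with its basic helix-loop-helix (bHLH) domain, which contacts DNA, exchanged for that of NeuroD2, and WCS is a mutant of that chimera that the labels do not define further. The other libraries used here carried WCS or the chimera with no MOI in the label, MyoD, NeuroD2 or GFP, the control virus. The labels do not give the share of infected cells or say that the cells of a culture were 1 clone.

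MyoD is the bHLH factor that sets skeletal muscle fate. It switches on further muscle regulators, such as myogenin and Mef2 factors, and with them the genes of the sarcomere, the contractile unit. NeuroD2 belongs to the neurogenic bHLH family, which turns on transcription factors, cytoskeletal genes and synaptic genes of differentiating neurons. Factors of both kinds pair with E-proteins and bind the E-box, written CANNTG.

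The WCS library at MOI 100 held 29407015 counts, against 28113664 for the chimera at MOI 100, within a range of 26410500 to 43984066 over the 8 libraries. At these totals the floor of 3 reads corresponds to 0.0940 CPM in the WCS library and 0.104 CPM in the chimera library. Myod1, whose sequence outside the bHLH domain both constructs carry, had 857 CPM with WCS and 555 CPM with the chimera, against 0.681 CPM with GFP, and was 1.54-fold higher with WCS. Neurod2 had 130.0 CPM with WCS and 73.3 CPM with the chimera, against 2.50 CPM with GFP, and was 1.77-fold higher with WCS. Reads of a delivered gene and of the cell's own copy are counted as 1 gene, so these ratios are not amounts of construct. Without an MOI label Myod1 ran the other way, with 77.3 CPM with WCS and 116 CPM with the chimera, and Neurod2 had 14.6 CPM with WCS and 13.8 CPM with the chimera. The part of these levels in the differences that follow was not tested. Folds are ratios of CPM, and the intervals given with them are exact 95% Clopper-Pearson intervals on the 2 counts. They cover counting error only and not the spread between cultures, since each side had 1 library. Reads copied by PCR are not independent molecules, so the intervals may be too narrow even for counting error.

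Genes of skeletal muscle were much lower with WCS than with the chimera at MOI 100, and genes of neurons were higher. At a size of 4-fold or more on the log2(CPM + 0.5) scale and a level of 5 CPM or more in the library that was higher, 190 genes were lower with WCS, or 1.22% of those measured, and 91 were higher, or 0.585%. The lower genes held 62 members of 9 muscle gene lists and 1 member of 9 neuron lists. The higher genes held 24 members of the neuron lists and 1 of the muscle lists, the adhesion receptor gene Adgrb3. At 2-fold the numbers were close to each other, with 516 genes lower (3.32%) and 502 higher (3.23%), so the excess of lower genes belonged to the larger differences. RNA came from whole cultures, in which fewer cells of a type and less RNA per cell cannot be told apart.

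**Figure D1:**
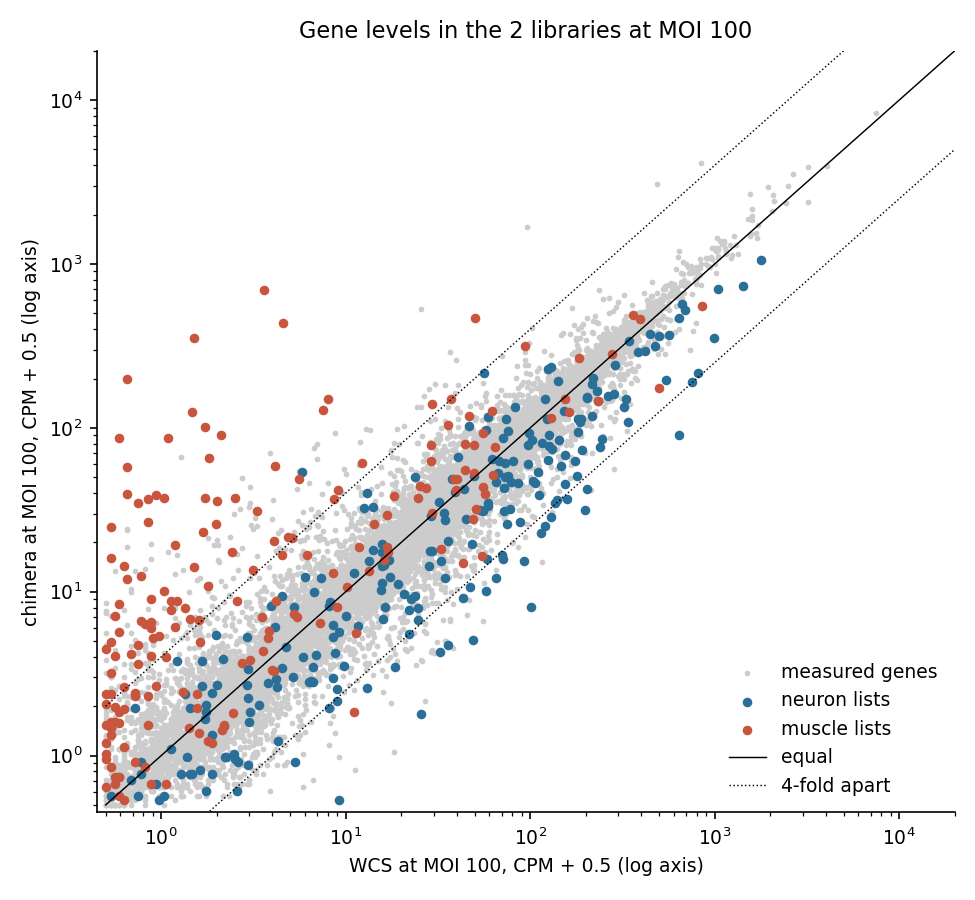
Level of each measured gene with WCS (horizontal axis) against the chimera (vertical axis), both at MOI 100, in CPM on log axes. Coloured points are members of the muscle lists (orange) and the neuron lists (blue), and dotted lines mark 4-fold. The 190 genes lower with WCS reach farther from the diagonal than the 91 higher ones.

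Atp2a1 and Actc1 were taken as markers of striated muscle, and Lhx9 and Barhl2 as markers of neurons. Atp2a1, the calcium pump of fast muscle, had 1.003 CPM with WCS and 355 CPM with the chimera at MOI 100, and without an MOI label 1.19 CPM with WCS and 111 CPM with the chimera, beside 480.1 CPM with MyoD, 0.838 CPM with NeuroD2 and 1.26 CPM with GFP. The WCS level lay with those of GFP and NeuroD2, and the ratio at MOI 100 was 354-fold lower (interval 251 to 518). Actc1, the cardiac actin that embryonic skeletal muscle also uses, had 3.10 CPM with WCS and 690.0 CPM with the chimera at MOI 100, and without a label 19.02 CPM with WCS and 481 CPM with the chimera, beside 5163 CPM with MyoD, 5.69 CPM with NeuroD2 and 42.3 CPM with GFP. With WCS at MOI 100 Actc1 was below its level in GFP cells, and 222-fold lower than with the chimera (interval 183 to 274).

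Both neuronal markers ran the other way. Lhx9, a LIM homeodomain factor of developing interneurons, had 100.2 CPM with WCS and 7.57 CPM with the chimera at MOI 100, and without a label 30.6 CPM with WCS and 2.22 CPM with the chimera, beside 0.154 CPM with MyoD, 8.18 CPM with NeuroD2 and 0.0243 CPM with GFP. Barhl2, a BarH-like homeodomain factor of developing spinal cord and retina, had 25.2 CPM with WCS and 1.28 CPM with the chimera at MOI 100, and without a label 14.4 CPM with WCS and 2.22 CPM with the chimera, beside 0.614 CPM with MyoD, 3.81 CPM with NeuroD2 and 0.924 CPM with GFP. For both genes the WCS library at MOI 100 was the highest of these 7, above NeuroD2, with ratios over the chimera of 13.2-fold (interval 11.5 to 15.3) for Lhx9 and 19.6-fold (interval 14.1 to 28.0) for Barhl2.

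**Figure D2:**
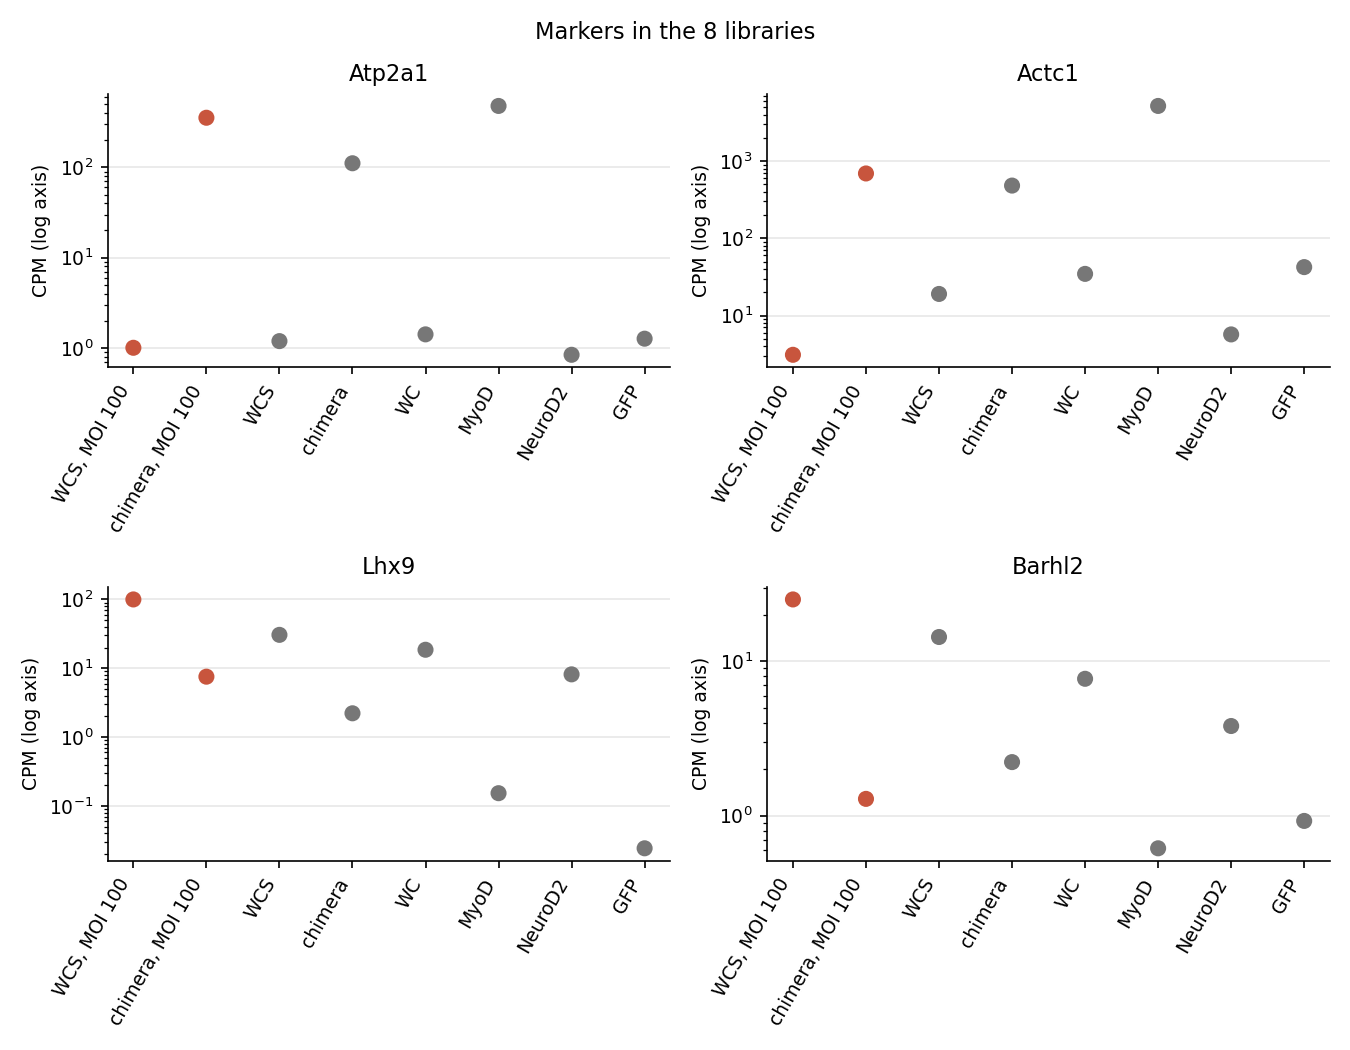
Levels of the 4 markers in the libraries of the series, in CPM on a log axis; orange marks the WCS and chimera libraries at MOI 100 and grey the others. Atp2a1 and Actc1 are high with the chimera and with MyoD, whereas Lhx9 and Barhl2 are highest with WCS at MOI 100.

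The promoters of the 4 markers and of Myog, the gene with the most extreme ratio, are shown for the E-boxes that a bHLH factor could read. Each is the 250 bases before the annotated start, from RefSeq on GRCm38.p6, 5′ to 3′ on the gene's strand, with every CANNTG in capitals; CANNTG reads the same on both strands, and no 2 matches overlap. Myog lies at chr1:134289754-134290003 on the plus strand. Atp2a1 lies at chr7:126463074-126463323, Actc1 at chr2:114052876-114053125, Lhx9 at chr1:138842445-138842694 and Barhl2 at chr5:106458167-106458416, all on the minus strand.
Myog: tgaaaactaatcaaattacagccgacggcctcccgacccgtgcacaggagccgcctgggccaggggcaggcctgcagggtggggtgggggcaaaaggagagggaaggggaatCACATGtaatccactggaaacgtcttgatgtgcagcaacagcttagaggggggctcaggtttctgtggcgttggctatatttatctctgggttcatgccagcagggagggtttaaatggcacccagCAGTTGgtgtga
Atp2a1: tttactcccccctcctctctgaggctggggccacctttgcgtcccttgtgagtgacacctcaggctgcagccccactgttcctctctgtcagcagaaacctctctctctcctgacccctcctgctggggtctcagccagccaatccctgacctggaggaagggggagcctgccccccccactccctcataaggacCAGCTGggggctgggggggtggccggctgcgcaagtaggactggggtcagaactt
Actc1: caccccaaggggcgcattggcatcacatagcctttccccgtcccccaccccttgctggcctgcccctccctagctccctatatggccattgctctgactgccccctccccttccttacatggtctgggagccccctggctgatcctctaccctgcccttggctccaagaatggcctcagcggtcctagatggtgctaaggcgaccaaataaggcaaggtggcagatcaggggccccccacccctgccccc
Lhx9: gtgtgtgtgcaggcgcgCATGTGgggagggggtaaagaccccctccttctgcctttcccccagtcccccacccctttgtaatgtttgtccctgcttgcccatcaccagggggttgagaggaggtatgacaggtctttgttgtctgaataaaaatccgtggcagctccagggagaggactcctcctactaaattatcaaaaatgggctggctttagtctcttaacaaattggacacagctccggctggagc
Barhl2: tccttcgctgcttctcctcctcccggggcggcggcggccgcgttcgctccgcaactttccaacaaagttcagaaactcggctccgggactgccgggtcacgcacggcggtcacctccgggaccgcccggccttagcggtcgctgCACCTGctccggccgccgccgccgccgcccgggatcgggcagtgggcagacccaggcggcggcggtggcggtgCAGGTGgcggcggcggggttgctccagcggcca

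Counting the base just before the start as -1, Myog held CACATG at -138 and CAGTTG at -12, and Atp2a1 held CAGCTG at -55. Lhx9 held CATGTG at -233, and Barhl2 held CACCTG at -106 and CAGGTG at -33, which are the same motif read on opposite strands. The Actc1 window held no CANNTG, which says only that these letters are not in these bases. Any CANNTG was present in 66.04% of all 27025 RefSeq promoter windows of this length, CAGCTG in 12.77%, CAGGTG in 17.1% and CAGATG in 14.48%, both strands searched, so these matches are a description and single no factor out. A comparison of motifs between the higher and the lower genes was void, because the table held a promoter for 72.53% and 71.58% of them, under the 80% needed.

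Of 29 measured myogenic regulators, 10 were at least 4-fold lower with WCS and 0 higher, with a median log2 ratio of -0.89, beside -0.03 over all measured genes. Myog, myogenin, the regulator that drives myoblasts into differentiation, had 5 reads (0.157 CPM) with WCS and 5674 reads (197 CPM) with the chimera, 1257-fold lower (interval 538 to 3872). It had 95.1 CPM with MyoD, whose label gives no MOI, and 0.0486 CPM with GFP. The chimera exceeded MyoD at this gene at MOI 100 but not without an MOI label, where the chimera had 58.2 CPM. WCS stayed near GFP, with 0 reads without a label.

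Smyd1, a muscle histone methyltransferase, had 0.595 CPM with WCS and 86.5 CPM with the chimera, 145-fold lower. Vgll2, a muscle cofactor of TEAD factors, had 3 reads with WCS and 228 reads with the chimera, a ratio of 84.2-fold lower with an interval of 28.4 to 411. Both had more RNA with MyoD than with the chimera, at 339 CPM for Smyd1 and 43.7 CPM for Vgll2, unlike Myog, and with GFP Smyd1 had 5.40 CPM, above WCS, and Vgll2 had 0 reads. Mef2c, a MADS-box partner of MyoD, had 8.59 CPM with WCS and 41.5 CPM with the chimera, against 392 CPM with MyoD and 0.948 CPM with GFP, so WCS lay above GFP here. Its ratio was 4.83-fold lower; Mef2c falls outside the naming rule and was chosen after its values were seen.

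Eya2, a transcriptional coactivator, followed another pattern, with 7.05 CPM with WCS and 128 CPM with the chimera, beside 3.07 CPM with MyoD, 30.9 CPM with NeuroD2 and 1.07 CPM with GFP. Its ratio was 18.2-fold lower, but the chimera level was above that of MyoD and of NeuroD2 alike. Pax7, the factor of muscle and neural progenitors, was similar, with 0.846 CPM with WCS, 7.50 CPM with the chimera, 0.922 CPM with MyoD, 2.13 CPM with NeuroD2 and 0.730 CPM with GFP. Pax7 was likewise chosen after its values were seen.

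Among 21 measured genes of myoblast adhesion and fusion, 6 were at least 4-fold lower and 1 higher, with a median log2 ratio of -0.32. Mymk, myomaker, a membrane protein required for myoblasts to fuse, had 5 reads (0.157 CPM) with WCS and 1643 reads (57.0 CPM) with the chimera, 364-fold lower (interval 156 to 1122). Its partner Mymx, myomixer, had 0.721 CPM with WCS and 8.33 CPM with the chimera, 11.6-fold lower. Cdh15, M-cadherin, had 1.22 CPM with WCS and 101 CPM with the chimera, 82.9-fold lower, and the receptor gene Fgfr4 was 8.82-fold lower. The 1 member on the other side, Adgrb3, a receptor known in synapses as well as in fusion, had 10.6 CPM with WCS and 1.35 CPM with the chimera, 7.80-fold higher, with 2.06 CPM with NeuroD2, 0.192 CPM with MyoD and 0.146 CPM with GFP.

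The filament genes had the lowest medians. Of 21 thick filament genes, 7 were at least 4-fold lower and 0 higher (median log2 ratio -2.21), and of 19 thin filament genes, 11 were lower and 0 higher (median -3.22). Summed over its members, the thick filament list had 40.6 CPM with WCS and 333 CPM with the chimera, beside 5972 CPM with MyoD and 12.5 CPM with GFP. Genes for myosin heavy chains, and those for muscle actins, are close copies of one another, and the way reads were shared among them is not stated, so their single values are uncertain.

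Mybph, a myosin-binding protein, had 0.251 CPM with WCS and 34.2 CPM with the chimera, 136-fold lower. The myosin light chain Myl1 had 0.345 CPM with WCS and 36.2 CPM with the chimera, 105-fold lower. The embryonic myosin heavy chain Myh3 had 7.49 CPM with WCS and 150.4 CPM with the chimera, 20.1-fold lower, beside 3060.4 CPM with MyoD and 0.511 CPM with GFP. Even the chimera library thus held less Myh3 RNA than the MyoD library, and the WCS library was above GFP. In the thin filament, the slow troponin I gene Tnni1 had 1 read with WCS and 700 reads with the chimera, a ratio of 775-fold with an interval of 139 to 30665. Tnnt2, cardiac troponin T, was 68.9-fold lower, and Lmod3, the actin nucleator leiomodin 3, was 76.1-fold lower, with 0.345 CPM with WCS and 26.2 CPM with the chimera.

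Sarcomere scaffold genes were likewise low. Of 31 members of the Z-disc, titin and assembly list, 13 were at least 4-fold lower and 0 higher, with a median log2 ratio of -2.04. Ttn, titin, the elastic protein that runs from Z-disc to M-line, had 4.07 CPM with WCS and 438 CPM with the chimera, 107-fold lower (interval 90.4 to 129). Trim55, a ubiquitin ligase of the sarcomere, had 0.157 CPM with WCS and 38.9 CPM with the chimera, 248.5-fold lower. Synpo2l, a Z-disc actin-binding protein, was 128-fold lower, and Klhl41, which steadies nebulin, was 87.1-fold lower. Desmin, the intermediate filament of muscle (Des, named after its values were seen), had 1.504 CPM with WCS and 35.5 CPM with the chimera, against 22.6 CPM with GFP, so that WCS cells held less of it than GFP cells.

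For excitation-contraction coupling and calcium handling, 7 of 22 genes were at least 4-fold lower and 0 higher (median log2 ratio -1.35). Beside Atp2a1, the calcium release channel Ryr1 had 1.60 CPM with WCS and 90.2 CPM with the chimera, 56.4-fold lower, and Stac3, a partner of the voltage sensor, was 13.7-fold lower. Jsrp1, a junctional protein of the sarcoplasmic reticulum, was 17.3-fold lower. Atp2a2, the pump that most cells use and that was named after its values were seen, had 361 CPM with WCS and 489 CPM with the chimera, against 443 CPM with GFP, a ratio of 1.36-fold lower.

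At the neuromuscular synapse 2 of 12 genes were at least 4-fold lower and 0 higher (median log2 ratio -1.68). Musk, the receptor kinase that gathers acetylcholine receptors, had 3 reads with WCS and 2489 reads with the chimera, 919-fold lower with an interval of 314 to 4459. Chrng, the fetal receptor subunit, had 1.19 CPM with WCS and 22.8 CPM with the chimera, 19.1-fold lower. Chrnd and Rapsn, another subunit and the clustering protein rapsyn, stayed under 5 CPM in both libraries and so outside the size rule, at 4.41 and 3.68 CPM with the chimera.

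The dystrophin complex had the median nearest 0 of the 9 muscle lists, with 2 of 12 genes at least 4-fold lower, 0 higher and that median at -0.27. Sgca, alpha-sarcoglycan, had 0.125 CPM with WCS and 13.8 CPM with the chimera, 110.2-fold lower, and Lama2, a laminin chain of the muscle basement membrane, was 21.8-fold lower. Dtna, a dystrobrevin that is also made in brain, had 50.1 CPM with WCS and 31.7 CPM with the chimera, 1.58-fold higher. In muscle metabolism 4 of 16 genes were at least 4-fold lower and 0 higher (median -1.22). That median was -0.29 when members under 1 CPM in all 8 libraries were added. Hfe2, hemojuvelin, had 1 read with WCS and 449 reads with the chimera, 497-fold lower with an interval of 88.8 to 19685. The muscle enolase Eno3 had 11.7 CPM with WCS and 60.3 CPM with the chimera, 5.15-fold lower.

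**Figure D3:**
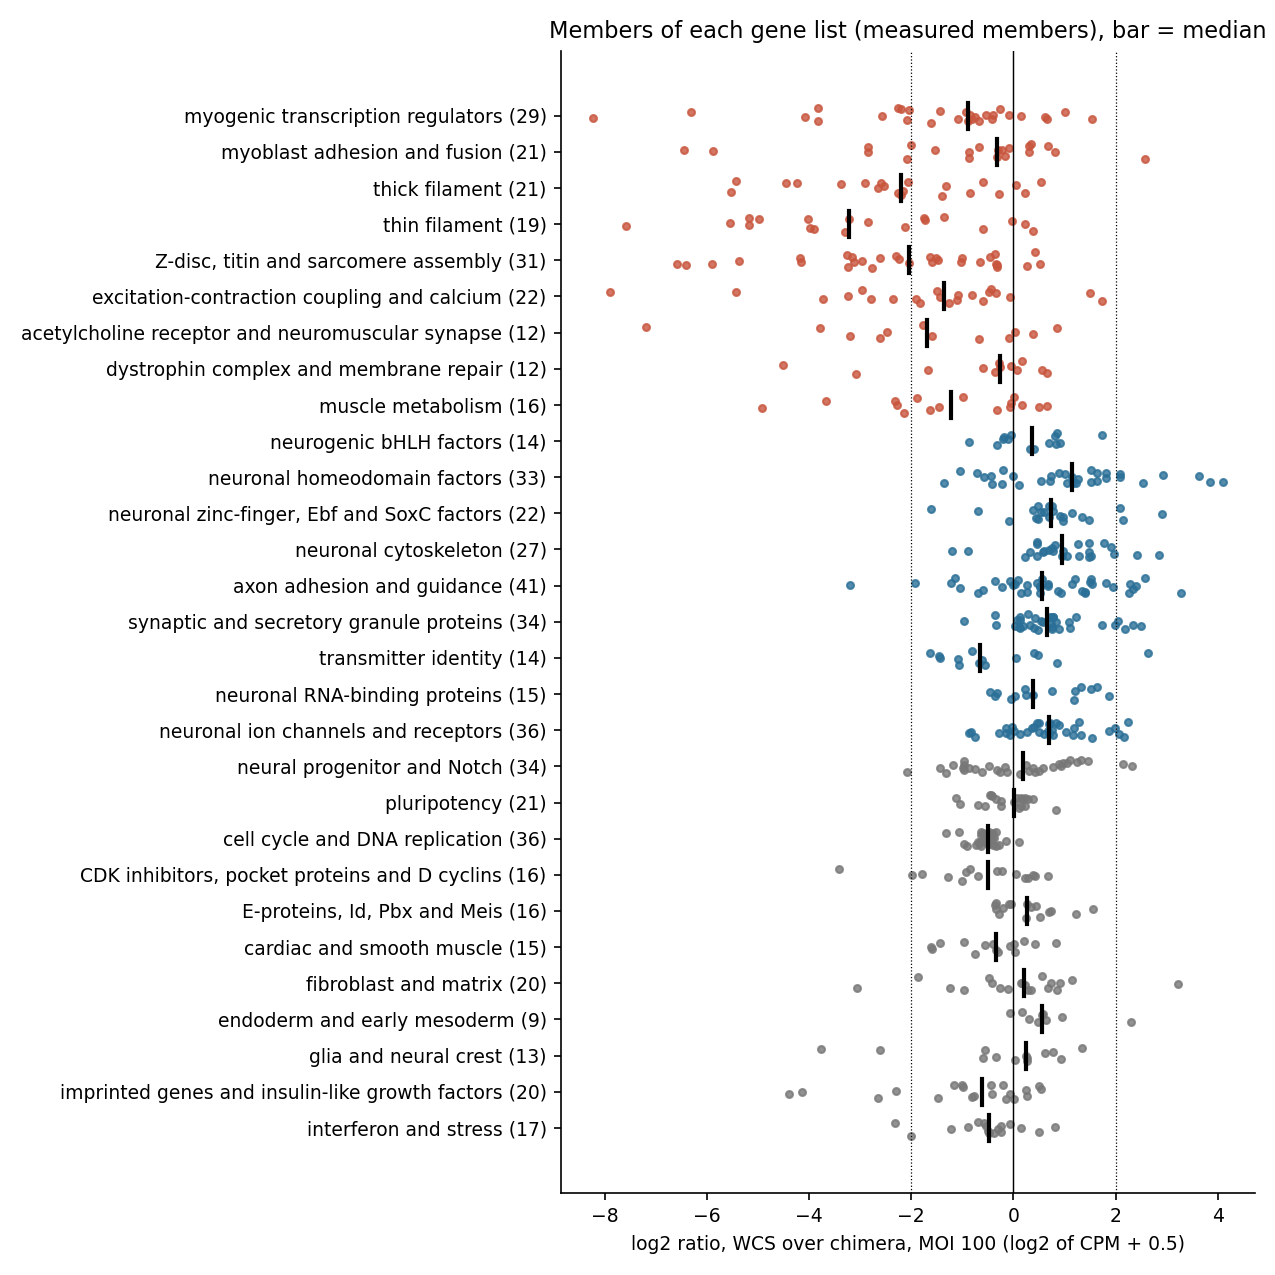
Log2 ratio of WCS over the chimera at MOI 100 for each measured member of the gene lists, with muscle lists in orange, neuron lists in blue and other lists in grey; black bars are medians and dotted lines mark 4-fold. The thin filament list has the lowest median (-3.22), and the homeodomain list the highest (1.16).

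Over all 9 muscle lists, 151 of 183 measured members lay below 0 and 32 above, with a median log2 ratio of -1.47. Without Myod1, which the viruses deliver, their summed level was 4081 CPM with WCS and 8664 CPM with the chimera, beside 30702 CPM with MyoD, 3851 CPM with NeuroD2 and 4113 CPM with GFP. The chimera library thus held far less muscle RNA than the MyoD library. At MOI 100 the WCS sum lay between those of NeuroD2 and GFP, and without an MOI label it was 3636 CPM, below both. These lists also contain members most cells express. Of 15 markers of heart and smooth muscle, 0 met the size rule at 4-fold, beside 0.585% higher and 1.22% lower over all measured genes. In that short list 10 members lay below 0 and 5 above, with a median of -0.35. At 2-fold 2 were lower and 0 higher, beside 3.32% and 3.23% of all measured genes. In that list the smooth muscle actin Acta2 had 29.0 CPM with WCS and 57.3 CPM with the chimera, against 102 CPM with GFP.

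Neuron genes were higher with WCS in most lists, by smaller ratios. Over the 9 neuron lists, 181 of 236 measured members lay above 0 and 55 below, the median log2 ratio was 0.70, and 24 were at least 4-fold higher and 1 lower. Without Neurod2 their summed level was 26082 CPM with WCS and 15698 CPM with the chimera, beside 4839 CPM with MyoD, 18514 CPM with NeuroD2 and 4556 CPM with GFP. The chimera library already held more neuronal RNA than the GFP library. WCS at MOI 100 held more than the NeuroD2 library, whose label gives no MOI. Without an MOI label WCS had 12519.5 CPM, below NeuroD2, and the chimera had 7206 CPM.

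Among 14 neurogenic bHLH factors none met the size rule at 4-fold or at 2-fold in either direction. At 2-fold 3.23% of all measured genes were higher and 3.32% lower. The list's median log2 ratio was 0.36, which was -0.042 when members under 1 CPM in all 8 libraries were added. Bhlhe22, a bHLH repressor of neurons, had 54.9 CPM with WCS and 30.6 CPM with the chimera, against 0.681 CPM with GFP. Neurod1, a close relative of Neurod2 named after its values were seen, had 119.8 CPM with WCS and 150.2 CPM with the chimera, against 0.608 CPM with GFP, 1.25-fold lower with WCS. Both constructs therefore had these factors far above GFP, and at Neurod1 the chimera was the higher. Atoh7, a retinal factor, had 2.44 CPM with WCS and 0.382 CPM with the chimera, a 6.40-fold ratio below the level the size rule asks for.

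Homeodomain factors had the highest median of the neuron lists, with 5 of 33 at least 4-fold higher, 0 lower and that median at 1.16. Evx2, an even-skipped homeodomain factor, had 278 reads with WCS and 1 read with the chimera, 251-fold higher with an interval of 44.7 to 9949. It had 4.26 CPM with NeuroD2, 0 reads with MyoD and 0.0243 CPM with GFP. Lhx5, a second LIM homeodomain factor, had 31.9 CPM with WCS and 3.78 CPM with the chimera, beside 39.0 CPM with NeuroD2 and 2.19 CPM with GFP, and was 8.44-fold higher. At Lhx5 the WCS level was below that of NeuroD2, unlike at Lhx9 and Barhl2.

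Of 22 zinc-finger, Ebf and SoxC factors, 3 were at least 4-fold higher and 0 lower (median log2 ratio 0.73). Myt1 and St18, related zinc-finger factors of newborn neurons, were 8.30-fold and 4.32-fold higher, with 35.2 CPM of Myt1 and 157 CPM of St18 with WCS, against 4.23 CPM of Myt1 and 36.4 CPM of St18 with the chimera. Scrt1, a neuronal repressor of the Snail family, had 46.5 CPM with WCS and 10.1 CPM with the chimera, 4.59-fold higher. Casz1, a castor-type zinc-finger factor, was the exception among the named members, with 12.5 CPM with WCS and 39.4 CPM with the chimera, 3.16-fold lower, beside 52.1 CPM with MyoD and 9.97 CPM with GFP.

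In the neuronal cytoskeleton 25 of 27 members lay above 0 (median log2 ratio 0.96), 2 at 4-fold or more. Ina, the intermediate filament alpha-internexin, had 644 CPM with WCS and 89.4 CPM with the chimera, 7.20-fold higher (interval 6.91 to 7.50). Mapt, tau, had 65.0 CPM with WCS and 11.7 CPM with the chimera, 5.56-fold higher. The microtubule protein gene Map2 had 813 CPM with WCS and 216 CPM with the chimera, 3.75-fold higher, just short of the size rule. For all 3 genes WCS at MOI 100 was above the NeuroD2 library, which had 362 CPM of Ina, 40.1 CPM of Mapt and 639 CPM of Map2. Without an MOI label WCS was below NeuroD2, with 162.5 CPM of Ina, 21.0 CPM of Mapt and 325 CPM of Map2. Dcx and Tubb3, doublecortin and neuronal tubulin, named after their values were seen, were 2.80-fold and 1.68-fold higher.

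Axon adhesion and guidance genes split, with 6 of 41 at least 4-fold higher and 1 lower (median log2 ratio 0.56). Dscam, an adhesion receptor that lets branches of 1 neuron avoid each other, had 48.8 CPM with WCS and 4.58 CPM with the chimera, 10.6-fold higher. Its paralog Dscaml1 was opposite, with 5.33 CPM with WCS and 53.0 CPM with the chimera, 9.95-fold lower (interval 8.49 to 11.7). The chimera library was the highest of the 7 at Dscaml1, above MyoD at 7.45 CPM, NeuroD2 at 13.3 CPM and GFP at 0.268 CPM. Robo3, the receptor that lets commissural axons cross the midline, had 17.9 CPM with WCS and 2.98 CPM with the chimera, 6.01-fold higher, and the neurexin ligand gene Nxph4 was 6.12-fold higher.

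Of 34 synaptic and secretory granule genes, 31 lay above 0 (median log2 ratio 0.65), 4 at 4-fold or more. Syt1, the calcium sensor of vesicle release, had 57.0 CPM with WCS and 9.61 CPM with the chimera, 5.93-fold higher. Pcsk2, a convertase of prohormones, had 114 CPM with WCS and 22.2 CPM with the chimera, 5.15-fold higher, beside 26.1 CPM with NeuroD2. Chgb, chromogranin B, was just under the size rule at 3.98-fold higher. Ion channels and receptors had 3 of 36 members at least 4-fold higher and 0 lower (median 0.69), among them Gabra3, a GABA receptor subunit, with 7.65 CPM with WCS and 1.46 CPM with the chimera, 5.25-fold higher. The neuronal RNA-binding proteins had none at 4-fold (median 0.38), and their leading member Celf4 was 3.77-fold higher.

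Transmitter identity genes were the 1 neuron list with a median below 0, at -0.65, with 9 of 14 members below 0. Slc17a6, the vesicular glutamate transporter, was the 1 member at 4-fold, with 197 CPM with WCS and 31.2 CPM with the chimera, 6.32-fold higher (interval 5.89 to 6.78), beside 60.6 CPM with NeuroD2, 0.269 CPM with MyoD and 0.122 CPM with GFP. The other named members were low in both libraries. Npy, the neuropeptide Y gene, had 0.721 CPM with WCS and 3.30 CPM with the chimera, against 74.3 CPM with GFP, and Ddc, a decarboxylase of monoamine synthesis, had 1.47 CPM with WCS and 4.93 CPM with the chimera.

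Outside the neuron lists, the leading higher genes by the rule for named genes were Sybu, Fezf1, Acvr1c, Fam163a, Negr1, Postn, Hs3st5 and Plcb1. Sybu, syntabulin, which links vesicle cargo to kinesin in axons, had 17.8 CPM with WCS and 0.555 CPM with the chimera, 32.1-fold higher. Negr1, a neuronal adhesion protein, had 26.5 CPM with WCS and 1.67 CPM with the chimera, 15.9-fold higher. Postn, the matrix protein periostin, which the fibroblast list holds, had 8.65 CPM with WCS and 0.486 CPM with the chimera, beside 19.9 CPM with NeuroD2. Without an MOI label Postn had 2.24 CPM with WCS and 1.32 CPM with the chimera, near GFP at 1.46 CPM.

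Cell cycle and DNA replication genes were lower with WCS by small and even ratios, with 35 of 36 members below 0 and a median log2 ratio of -0.51, beside -0.03 over all measured genes. None was 4-fold apart and 2 were 2-fold lower, against 3.32% of all measured genes. Ube2c, a ubiquitin-conjugating enzyme of mitosis, had 97.3 CPM with WCS and 243 CPM with the chimera, 2.49-fold lower, and the mitotic kinase Plk1 had 71.6 CPM with WCS and 139.7 CPM with the chimera. Summed over the list, the level was 4649.9 CPM with WCS and 6809 CPM with the chimera, beside 9056 CPM with MyoD, 6797 CPM with NeuroD2 and 10339.5 CPM with GFP. Among these libraries WCS at MOI 100 was the lowest.

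Some regulators of cell cycle exit and the D cyclins were lower as well. Cdkn1a, the p21 inhibitor that muscle cells use to leave the cycle, had 8.24 CPM with WCS and 92.4 CPM with the chimera, beside 187 CPM with MyoD and 8.51 CPM with GFP, and was 11.2-fold lower (interval 9.88 to 12.8). It was the 1 member of 16 in its list at 4-fold. Ccnd3, the D cyclin of differentiating muscle, had 102 CPM with WCS and 406 CPM with the chimera, 3.97-fold lower, while Ccnd1 and Ccnd2 were 3.53-fold and 2.43-fold lower.

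In the list of imprinted genes and genes of the insulin-like growth factor system, 4 of 20 were at least 4-fold lower and 0 higher (median log2 ratio -0.61). Igf2, the insulin-like growth factor of the fetus, had 95.1 CPM with WCS and 1689 CPM with the chimera, beside 3539.9 CPM with MyoD, 237 CPM with NeuroD2 and 184 CPM with GFP, 17.8-fold lower. H19, the noncoding RNA next to it, had 25.0 CPM with WCS and 533 CPM with the chimera, against 119 CPM with GFP, 21.3-fold lower. Both genes were below GFP with WCS and far above GFP with the chimera. Mir675, processed from H19, and Igf2os, antisense to Igf2, were 21.5-fold and 9.68-fold lower, but they overlap those genes and whether strand was used in counting is not stated, so their reads cannot be told apart. Peg10 was 6.27-fold lower, with 488 CPM with WCS and 3059.6 CPM with the chimera, against 348 CPM with GFP. Without an MOI label Peg10 was 1.64-fold lower. Igfbp5, which binds insulin-like growth factors, was 4.92-fold lower, with 841 CPM with WCS and 4132 CPM with the chimera. It had 1131 CPM with NeuroD2 and 55.3 CPM with GFP, and without an MOI label it was 8.56-fold lower. At Peg10 and Igfbp5 WCS at MOI 100 thus lay above GFP, unlike at Igf2 and H19.

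In the pluripotency list of 21 none met the size rule at 2-fold, beside 3.23% higher and 3.32% lower over all measured genes. Its median log2 ratio was 0.01, with 11 members above 0 and 10 below. Klf4 and Fgf5 were 2.53-fold and 3.62-fold lower with WCS, but stayed under 5 CPM in both libraries and so outside the rule. Pou5f1, Oct4, which was named after its values were seen, had 29.1 CPM with WCS and 38.9 CPM with the chimera, against 1227 CPM with GFP, so both MOI 100 libraries were far below the control. Sox2, which neural progenitors keep, had 126 CPM with WCS and 108 CPM with the chimera, against 124 CPM with GFP. Of 34 progenitor and Notch genes 1 was 4-fold higher, Nkx6-1, a ventral neural tube factor with 22 CPM with WCS and 4.03 CPM with the chimera, and 1 was lower, the Notch effector Heyl with 8.18 CPM with WCS and 36.3 CPM with the chimera. The list's median was 0.19. E-proteins, Id, Pbx and Meis factors had none at 4-fold (median 0.26), with the inhibitor genes Id4 and Id2 2.98-fold and 2.38-fold higher.

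Over 4 lists of other cell types and of stress, 59 members held 2 genes higher by 4-fold or more (3.39%) and 3 lower (5.08%), beside 0.585% and 1.22% of all measured genes. In the fibroblast and matrix list 1 of 20 was higher, Postn, and 1 lower, the collagen gene Col6a1 with 2.57 CPM with WCS and 25.2 CPM with the chimera. In the glia and neural crest list 1 of 13 was lower and 0 higher, the receptor gene Erbb3, with 0.721 CPM with WCS and 16.2 CPM with the chimera, against 134 CPM with MyoD and 19.02 CPM with GFP. In the endoderm and early mesoderm list 1 of 9 was higher and 0 lower, the T-box gene Eomes, which neural progenitors also use, with 8.08 CPM with WCS and 1.25 CPM with the chimera. In the interferon and stress list 1 of 17 was lower and 0 higher, the immediate early gene Egr1 with 11.3 CPM with WCS and 58.6 CPM with the chimera. Summed levels were 805 CPM with WCS and 974 CPM with the chimera for the fibroblast list, 124 CPM with WCS and 107 CPM with the chimera for the glial list, 30.1 CPM with WCS and 16.4 CPM with the chimera for the endoderm list, and 1072 CPM with WCS and 1275 CPM with the chimera for the stress list. Their part in the muscle and neuron differences was not tested.

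At the edge of the size rule, the lower genes just inside 4-fold were Sh3bgr, Megf10 and Zcchc24, with log2 ratios of -2.004, -2.011 and -2.027. Just outside it were Cpt1a, Sec14l2 and Arpp21 at -1.997, -1.992 and -1.985. The higher genes just inside were Pkib, Begain and Cnpy1 at 2.003, 2.009 and 2.009, and just outside were Cdh11, Kcnq3 and Plcxd3 at 1.998, 1.994 and 1.994. Neighbours on either side of the threshold thus differed by a few hundredths of a log2 unit.

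WCS and the chimera were also sequenced without an MOI in the label, which gives a second pair of libraries that shares none with the first. In that pair 117 genes were at least 4-fold lower with WCS (0.753%) and 92 higher (0.592%). Of the 190 genes lower at MOI 100, 189 were also below 0 in the second pair, where 49.1% of all measured genes were, and 94 reached 4-fold there, which is 49.5% of the 190 and 80.3% of the 117. Of the 91 higher genes, 89 were above 0 in the second pair, where 50.9% of all measured genes were, and 38 reached 4-fold, which is 41.8% of the 91 and 41.3% of the 92. Across 12310 genes with 5 CPM or more in at least 1 of these 4 libraries the 2 log2 ratios had a Pearson correlation of 0.779 and a Spearman correlation of 0.570, a description over genes, which are not independent replicates.

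**Figure D4:**
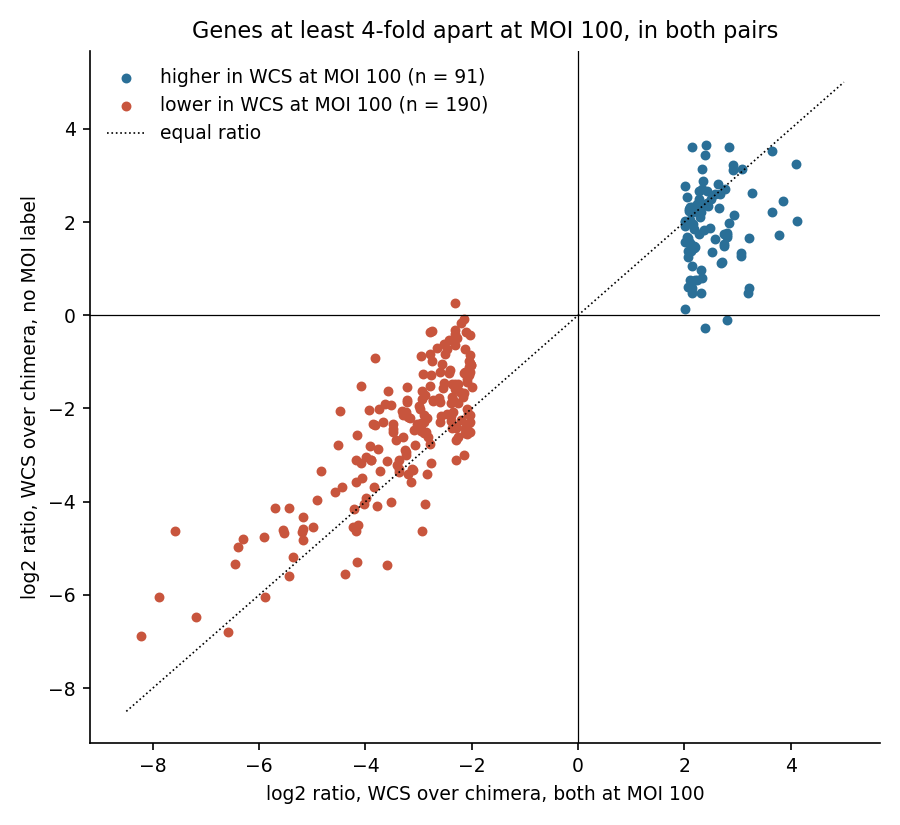
Log2 ratio of WCS over the chimera at MOI 100 against the same ratio without an MOI label, with the 190 lower and 91 higher genes of the MOI 100 pair coloured. Nearly all coloured points lie on the same side of 0 in both pairs.

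Some genes kept their ratio and others did not. Ttn had a log2 ratio of -6.58 at MOI 100 and -6.79 without a label, and Lhx9 had 3.64 at MOI 100 and 3.52 without a label. Actc1 was farther apart at MOI 100, at -7.58 beside -4.62, and Sybu at 4.12 beside 2.01. Tead4, a TEAD factor of muscle named after its values were seen, had 3.63 CPM with WCS and 57.7 CPM with the chimera at MOI 100, and without a label 21.3 CPM with WCS and 40.6 CPM with the chimera. Kcna6, a potassium channel gene chosen the same way, was 7.84-fold higher at MOI 100, with 25.6 CPM with WCS and 3.26 CPM with the chimera, and had 2.51 CPM with WCS and 2.75 CPM with the chimera without a label. Whether the construct difference depended on the MOI could not be tested, since 4 libraries leave no spread for that term.

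Fitting the 4 libraries together by construct and MOI label with edgeR's quasi-likelihood test gives p-values for how closely the 2 labels matched in their construct difference, on 1 residual degree of freedom, and not the spread between separate cultures. At a Benjamini-Hochberg adjusted p under 0.05, 939 of 16079 genes were called higher with WCS (5.84%) and 882 lower (5.49%). Of the 190 genes at least 4-fold lower at MOI 100, 177 were called lower and 0 higher. Of the 91 higher ones 90 were tested, 83 were called higher and 0 lower. The 2 MOI 100 libraries that chose these genes are also in the fit, so these calls and the adjusted p below are not independent of that choice. Adjusted p in this fit was 1.7e-05 for Myog, 1.7e-05 for Ttn, 0.00014 for Atp2a1 and 0.0025 for Actc1, and 9.3e-05 for Lhx9 and 0.0024 for Barhl2. Postn at 0.095, Egr1 at 0.075 and Neurod2 at 0.17 missed the threshold. Without the MOI label as a term the same test called 0 genes in either direction, with 1137 at an unadjusted p under 0.05, whereas the DESeq2 Wald test with both terms called 873 higher and 779 lower.

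By list, 112 of 170 tested muscle genes fell with WCS in this fit and 11 rose, and 117 of 240 neuron genes rose and 14 fell. Over all genes tested, 5.84% were called higher and 5.49% lower, so the 11 and the 14 were near the share of all genes. The thin filament list had 15 of 18 lower and 0 higher, and the Z-disc list 23 of 28 lower and 1 higher. In the neuronal cytoskeleton 22 of 27 rose and 1 fell. Cell cycle genes fell in 21 of 36 cases and rose in 0, although none was 4-fold apart. The pluripotency list had 1 of 19 lower, near the share of all genes, and 0 higher.

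The MyoD, NeuroD2 and GFP libraries, which take no part in the MOI 100 pair, show where its genes stand under the parent factors. Of the 190 genes lower with WCS, 103 (54.2%) were at least 4-fold higher with MyoD than with GFP, beside 2.75% of all measured genes, and 17 (8.95%) were at least 4-fold higher with NeuroD2 than with GFP, beside 4.37%. Of the 91 genes higher with WCS, 52 (57.1%) were at least 4-fold higher with NeuroD2 and 3 with MyoD. Of the 190 lower genes, 1 was at least 4-fold lower with MyoD than with GFP, beside 0.92% of all measured genes. With NeuroD2 8 of the 190 were at least 4-fold lower than with GFP, a larger share than the 1.6% of all measured genes. Of the 91 higher genes, 4 were at least 4-fold lower with MyoD, also a larger share than 0.92%, and 0 with NeuroD2. MyoD and NeuroD2 were set against the same GFP library, so these counts are not independent of each other.

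The median level of the 190 lower genes was 1.66 CPM with WCS and 23.4 CPM with the chimera at MOI 100, beside 31.0 CPM with MyoD, 2.31 CPM with NeuroD2 and 1.33 CPM with GFP. For the 91 higher genes it was 26.4 CPM with WCS and 4.03 CPM with the chimera, beside 0.768 CPM with MyoD, 14.2 CPM with NeuroD2 and 1.31 CPM with GFP. The values of the MOI 100 pair chose these genes and are given as a description. In the libraries that did not choose them, the lower genes were high with MyoD and near GFP with NeuroD2, and the higher genes were high with NeuroD2 and below GFP with MyoD.

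**Figure D5:**
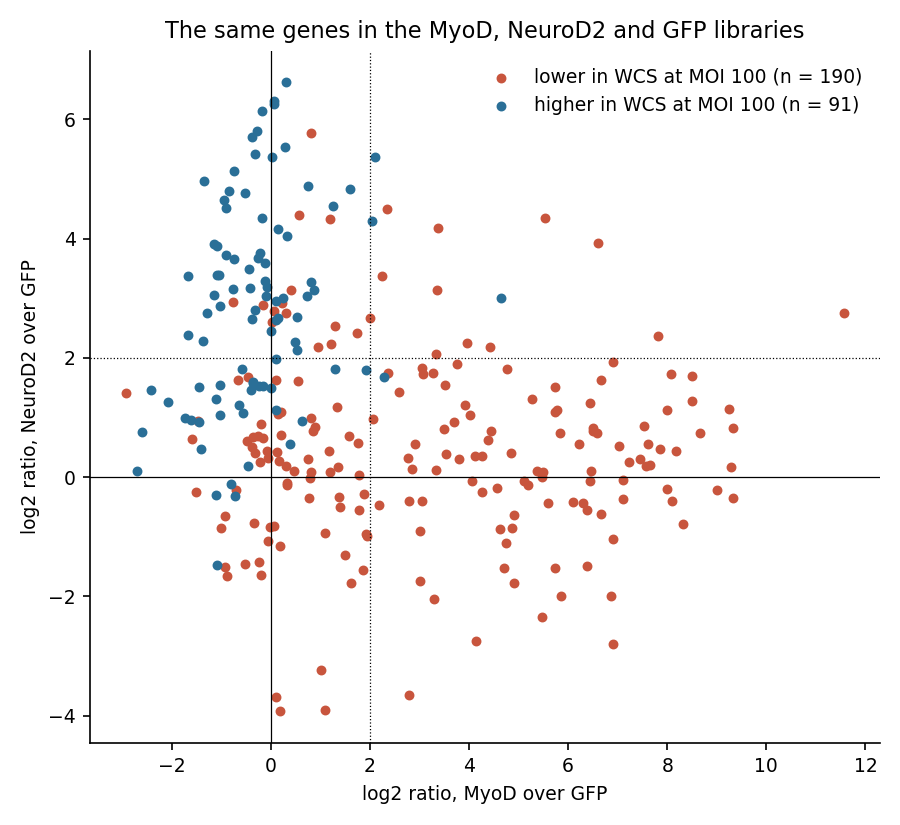
Log2 ratio of MyoD over GFP (horizontal axis) against that of NeuroD2 over GFP (vertical axis) for the genes lower and the genes higher with WCS at MOI 100. Dotted lines mark 4-fold above GFP. Of the lower genes 54.2% are at least 4-fold above GFP with MyoD, and of the higher genes 57.1% are with NeuroD2.

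Among the 190 lower genes, 54 (28.4%) were under 2-fold apart between MyoD and GFP, beside 82.5% of all measured genes. The members named next were picked, after their values were seen, from among those with the firmest ratios. Dclk3, with 1 read with WCS and 190 reads with the chimera, also belonged to that group. Tbx18, a T-box factor of mesoderm, had 0.157 CPM with WCS and 18.3 CPM with the chimera, beside 0.307 CPM with MyoD, 0.105 CPM with NeuroD2 and 0.146 CPM with GFP, 117-fold lower. Barx1, a homeodomain factor of jaw and stomach mesenchyme, had 0.376 CPM with WCS and 19.2 CPM with the chimera, beside 0.845 CPM with MyoD, 0.314 CPM with NeuroD2 and 0.268 CPM with GFP, 50.9-fold lower. Both were under 1 CPM with WCS, with either parent factor and with GFP, and high in the chimera library alone of these 5. Without an MOI label Tbx18 had 0.136 CPM with WCS and 5.91 CPM with the chimera, and Barx1 had 0.951 CPM with WCS and 5.54 CPM with the chimera.

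Evi2a had 0.157 CPM with WCS and 23.5 CPM with the chimera, against 0.192 CPM with MyoD and 0 reads with GFP, and its overlapping neighbour Evi2 had almost the same values, so their reads cannot be told apart. Fxyd7, a regulator of the sodium pump in brain, had 0.219 CPM with WCS and 12.8 CPM with the chimera, 58.5-fold lower, against 0.0384 CPM with MyoD and 0.170 CPM with GFP. Fbxo40, a muscle F-box protein, had 0.376 CPM with WCS and 15.4 CPM with the chimera, 41.0-fold lower, against 0.384 CPM with MyoD. The set was therefore not of 1 kind, holding a muscle gene, a brain gene and mesoderm factors that MyoD left low here.

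On the higher side, the genes with the firmest ratios among those under 2-fold apart between NeuroD2 and GFP, also chosen after their values were seen, were Fezf1, Pid1, Ube2ql1, Ndp, St8sia1, Gria4, Chst8 and Mtus2. Fezf1, a forebrain zinc-finger repressor, had 10.7 CPM with WCS and 0.312 CPM with the chimera, beside 1.85 CPM with NeuroD2 and 1.09 CPM with GFP, 34.2-fold higher. Gria4, an AMPA receptor subunit, had 42.7 CPM with WCS and 8.61 CPM with the chimera, beside 14.2 CPM with NeuroD2 and 15.4 CPM with GFP, 4.96-fold higher. The chimera was below GFP at Gria4 and at Fezf1, and WCS was above all of MyoD, NeuroD2 and GFP. St8sia1, a ganglioside synthase, had 30.6 CPM with WCS and 4.41 CPM with the chimera, against 8.83 CPM with GFP, 6.95-fold higher.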

How the data were processed

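The values are the authors' deposited raw counts of reads per Ensembl gene, 1 column for each of 8 poly(A)-selected libraries. Per the submitters' processing notes, CASAVA 1.8.2, TopHat2 2.0.8 and the mm9 build were used; the counting tool, annotation release and strand setting were not given in the sources used here. Symbols came from GENCODE M21 by Ensembl ID for 32850 of 37558 genes (87.5%), and no coordinates were taken from it. Poly(A) selection leaves out RNA without a tail, and gene counts do not separate isoforms.

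CPM were computed here with edgeR 4.0.16, using TMM factors over all 8 libraries from 0.9348 to 1.085. Ratios are on log2(CPM + 0.5), which understates the change of low genes. At MOI 100 there was 1 library per construct, so no test between them was made. The 4 libraries of WCS and the chimera went into 1 quasi-likelihood model in edgeR, with a term for construct and one for the MOI label; filterByExpr removed low genes first, and calls used Benjamini-Hochberg adjusted p under 0.05. The pair and fit steps were tested on simulated data. Promoters came from RefSeq (GRCm38.p6).

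The comparison, its members and the 29 gene lists were chosen with earlier results of these data known. Of 723 list symbols, 5 matched no gene. Named genes are the 4 markers, Myod1 and Neurod2, the 12 higher and 12 lower genes that meet the size rule with the largest interval bound on the side nearest no change, up to 4 members of each list by the same bound, and the 3 genes on either side of each threshold, predicted gene models skipped; some genes that the rule names are not reported here. Alternatives were DESeq2 1.42.0 size factors and its Wald test, total counts, a pseudocount of 2 CPM, no minimum level, other fold thresholds, no filter, no MOI term, all 8 libraries and each library left out. Software was Python 3.11.15 (matplotlib 3.10.9, scipy 1.17.1, pandas 2.3.3, numpy 2.4.6) and R 4.3.3 (limma 3.58.1).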

Additional observations from a re-analysis of the deposited data

Results flagged for a closer look

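Npr3, the natriuretic peptide clearance receptor gene, ran opposite ways in the 2 pairs of WCS and chimera libraries. At MOI 100 it had 2.82 CPM with WCS and 16.0 CPM with the chimera, a log2 ratio of -2.31. Without the MOI label it had 35.5 CPM with WCS and 29.5 CPM with the chimera, a log2 ratio of 0.2612. Each group had 1 library, so the difference between the pairs was not tested. Of the 190 lower genes at MOI 100 it was the 1 gene on the other side without the label; 2 of the 91 higher genes were as well, within counting error in the unlabelled pair.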

How the results depend on the processing

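Among the medians and ratios recomputed, the median log2 ratio of the neurogenic bHLH list, 0.36, turned to -0.042 when members below 1 CPM in all 8 libraries were added, and that of the glia and neural crest list, 0.24, became 0; no other one changed sign under the alternatives run. The count of genes at least 4-fold apart depended on how low genes were treated: a pseudocount of 2 CPM left 50 genes higher with WCS, against 91, and 127 lower, against 190. An 8-fold threshold left 13 higher and 89 lower, and a 2-fold threshold, chosen after seeing the data, gave 502 higher and 516 lower. Scaling by DESeq2 size factors (97 higher, 188 lower), by total counts (105 and 175) and dropping the minimum level (113 and 245) stayed within 1.5 times; total counts moved the median of all genes by 0.0760 on the log2 scale and DESeq2 size factors by 0.0189. The median log2 ratio of the muscle lists was -0.81 with a pseudocount of 2 CPM, against -1.47, and that of the neuron lists was 0.78 with total counts, against 0.70.

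The 4-library fit called 0 genes higher and 0 lower without the MOI label as a term. Leaving out each library, which needs the fit without that term and was chosen after seeing the data, called 0 genes in either direction without WCS at either label, 6 higher and 46 lower without the chimera at MOI 100, and 3 higher and 100 lower without the unlabelled chimera, with 1003 to 1317 genes at an unadjusted p under 0.05 in edgeR; the lone library of a construct is then assumed to vary like the others. With both terms, DESeq2 size factors gave 1114 higher and 976 lower, no filter 859 and 822, and all 8 libraries 969 and 846. The labels carry no replicate numbers, so no block on them could be fitted; the MOI label term sets WCS against the chimera within each label. A comparison of E-box shares between gene sets was not run, since too few genes had a promoter in the table. Depth limits the low side of the largest ratios: Tnni1, Hfe2 and Evx2 rest on 1 read in the lower library, where the intervals span more than 100-fold.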
